A study of Rattus norvegicus with 12 samples.

Results

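Membrane-bound and secreted serine proteases of epithelia, their Kunitz-type inhibitors and genes of sodium transport were examined in rat cornea. The set was a list of 10 gene symbols: the proteases Prss8, Prss22, Prss27, Prss30 and St14, the inhibitors Spint1 and Spint2, the sodium pump regulators Fxyd3 and Fxyd4, and the sodium channel subunit Scnn1a. The table of 30452 genes had a row for 9 of the 10 symbols; Fxyd3 was not analysed here. Of these 9, 8 reached at least 1 FPKM (fragments scaled to gene length and library size) in at least 3 libraries and were tested; Scnn1a did not. The genes were chosen by their family and with measured values in view, namely the lower FPKM of Prss30 and Fxyd4 in both patch groups than in burned corneas. For those 2 comparisons the values below are therefore a description and carry no test. The other 4 comparisons share libraries with them. Their p-values are therefore not independent of the choice of genes, least of all for Prss30 and Fxyd4.

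RNA sequencing covered 12 libraries of Rattus norvegicus cornea, 3 in each of 4 groups labelled SF/HA-HEP-PAM, SF/HA, Alkali-burned and Control. The first 2 are named for versions of a silk-based patch that sticks to the eye surface for a time and can be taken off again. What SF, HA, HEP and PAM stand for is not given, nor whether the corneas of the patch groups were burned, when corneas were taken, or the strain and age of the rats. Nothing says that replicates came from separate animals, so a p-value here reflects the spread among these libraries alone, which may be technical. Libraries held 1245606 to 2117399 assigned reads in SF/HA-HEP-PAM, 499061 to 957696 in SF/HA, 1173159 to 1265298 in Alkali-burned and 486264 to 1015788 in Control. Krt12, the keratin that defines corneal epithelium, averaged 2142 ± 271.5 FPKM in SF/HA-HEP-PAM, 1570 ± 329.2 in SF/HA, 1543 ± 448.5 in Alkali-burned and 2902 ± 1054 in Control (SD, n = 3 each). Summed over 8 epithelial markers, the share of reads was 3.71 to 4% in SF/HA-HEP-PAM, 2.68 to 3.57% in SF/HA, 1.97 to 2.92% in Alkali-burned and 3.35 to 5.8% in Control.

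As background, matriptase (St14) and prostasin (Prss8) form a cascade at the surface of epithelial cells. Matriptase is an integral membrane protease, prostasin is tethered by a lipid anchor, and the 2 Kunitz inhibitors Spint1 and Spint2 hold both in check. The cascade builds tight junctions and the barrier of stratified epithelia, can activate the receptor PAR2 (F2rl1), and prostasin can raise the activity of the epithelial sodium channel, of which Scnn1a is the alpha subunit. Fxyd4 is a small membrane protein that binds the sodium pump and raises its affinity for sodium.

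The RefSeq table of promoter windows, on build GRCr8, matched 5 of the 10 symbols: Prss27, Prss30, Spint1, Spint2 and Fxyd4. The 250 bases before the start of 4 of them are shown, since Prss27, Prss30 and Fxyd4 varied together across the groups and Spint1 did not. Capitals mark matches to CACCC (the core of sites bound by KLF factors) or TGANTCA (AP-1), on either strand; GGGTG is CACCC read on the other strand. Prss30 lies at chr10:13515606-13515855 on the minus strand, Prss27 at chr10:13574276-13574525 on the plus strand, Fxyd4 at chr4:152786046-152786295 on the minus strand and Spint1 at chr3:126685031-126685280 on the plus strand.
Prss30: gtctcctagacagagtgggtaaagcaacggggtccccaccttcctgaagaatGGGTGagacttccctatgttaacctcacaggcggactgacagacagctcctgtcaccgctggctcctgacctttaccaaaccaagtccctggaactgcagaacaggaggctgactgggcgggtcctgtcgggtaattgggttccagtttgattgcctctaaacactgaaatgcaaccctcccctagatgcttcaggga
Prss27: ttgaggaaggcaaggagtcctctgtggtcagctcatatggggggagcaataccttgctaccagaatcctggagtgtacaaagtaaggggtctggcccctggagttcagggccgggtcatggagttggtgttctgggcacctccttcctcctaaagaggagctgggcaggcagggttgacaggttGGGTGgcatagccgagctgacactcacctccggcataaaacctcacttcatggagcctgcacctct
Fxyd4: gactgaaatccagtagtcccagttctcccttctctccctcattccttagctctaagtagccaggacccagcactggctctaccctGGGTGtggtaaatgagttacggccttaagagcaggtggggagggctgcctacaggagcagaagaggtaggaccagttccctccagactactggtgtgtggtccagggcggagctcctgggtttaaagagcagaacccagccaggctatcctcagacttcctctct
Spint1: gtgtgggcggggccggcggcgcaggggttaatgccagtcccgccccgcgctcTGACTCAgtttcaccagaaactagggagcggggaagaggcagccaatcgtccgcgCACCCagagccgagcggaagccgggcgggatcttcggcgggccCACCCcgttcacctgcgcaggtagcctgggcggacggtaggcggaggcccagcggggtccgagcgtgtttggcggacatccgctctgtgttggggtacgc
The windows of Prss30, Prss27 and Fxyd4 held 1 CACCC match each and that of Spint1 held 2; 49.2% of all 33465 windows of this length held at least 1. The AP-1 match, TGACTCA, began 198 bases before the start of Spint1, and 6.34% of all windows held one. The grainyhead motif AACNNGTT was in none of the 5 windows and in 3.6% of all windows; its absence here says nothing of the factors that act on these genes. GC content was 54.4% in Prss30, 56.8% in Prss27 and 55.6% in Fxyd4, against 70.4% in Spint1 and 69.6% in Spint2, with a median of 51.2% over all windows.

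The 4 proteases of the Prss group and Fxyd4 shared an order of levels: highest in burned corneas, lower in Control and lowest in the patch groups. Matriptase and the Kunitz inhibitors did not share it, and the mean levels of St14 and Spint1 were highest with SF/HA-HEP-PAM. Levels are given per library in replicate order. The values come from whole tissue, where fewer cells of a type and less RNA per cell cannot be told apart.

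**Figure D1:**
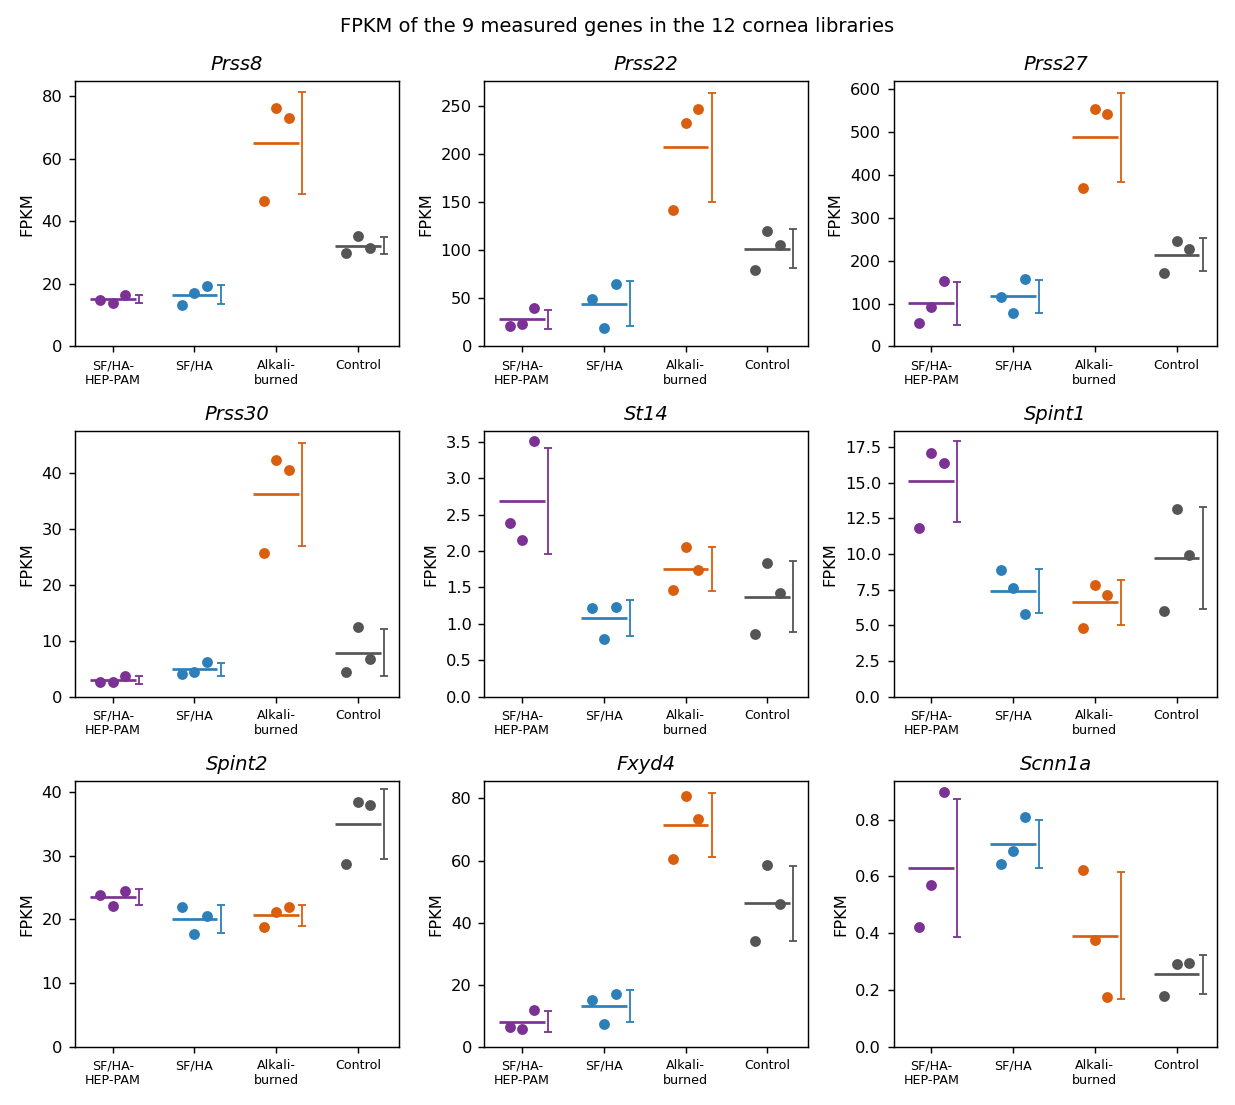
FPKM of the 9 measured genes (vertical axis, from 0) in each of the 12 libraries, by group. Points are libraries, horizontal lines are group means and bars beside them are 1 SD; Prss8, Prss22, Prss27, Prss30 and Fxyd4 peak in Alkali-burned, whereas Spint1 is highest in SF/HA-HEP-PAM at 11.8 to 17.1 FPKM.

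Prss30, a tryptase-like serine protease, lies on chromosome 10 from 13007341 to 13011030 (minus strand, build mRatBN7.2). It measured 2.65, 2.56 and 3.70 FPKM in SF/HA-HEP-PAM, 4.06, 4.34 and 6.23 in SF/HA, 25.6, 42.4 and 40.5 in Alkali-burned, and 4.46, 12.5 and 6.67 in Control. The burned libraries stood above all 9 others, and each SF/HA-HEP-PAM library lay below every other library. Few reads stand behind the low values: 14 to 20 in SF/HA-HEP-PAM, 8 to 22 in SF/HA, 111 to 198 in Alkali-burned and 8 to 41 in Control. Prss30 rose in burned corneas against Control, by 2.14 ± 0.32 on the log2(FPKM + 1) scale (SE; adjusted p = 0.00371, limma), and kept that call under all 17 alternative settings. It was the only one of the 8 tested genes called in that comparison, where 5.69% of all 6112 tested genes were called, 4.42% higher and 1.28% lower. Limma voom on recovered reads called 2 of the 9 genes there, against 7.62% of all genes in that fit. A call here means an adjusted p below 0.05 and a log2 difference beyond 1 in size.

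Prss22, a secreted tryptase-like protease of epithelia, lies on the same chromosome from 13029153 to 13033863 (minus strand). It measured 21.3, 23.6 and 39.7 FPKM in SF/HA-HEP-PAM, 49.3, 19.1 and 64.9 in SF/HA, 142, 233 and 247 in Alkali-burned, and 79.5, 120 and 105 in Control. Both patch groups lay below all Control libraries and overlapped each other. Against Control it fell by 1.84 ± 0.42 with SF/HA-HEP-PAM (log2, SE; limma adjusted p = 0.0119). The difference of SF/HA from Control was -1.32 ± 0.42 (adjusted p = 0.0946) and that of Alkali-burned from Control was 1.0 ± 0.42 (adjusted p = 0.181), neither called.

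Prss27, also called marapsin, spans 13069959 to 13077322 (plus strand) and reached the highest read number of the 9 genes, with 290 to 5154 per library. It measured 55.3, 92.4 and 153 FPKM in SF/HA-HEP-PAM, 115, 78.9 and 157 in SF/HA, 368, 553 and 542 in Alkali-burned, and 171, 245 and 227 in Control. The burned libraries did not overlap Control, with a log2 difference of 1.18 ± 0.36 that missed the threshold (limma adjusted p = 0.0721). Against Control it fell with SF/HA-HEP-PAM, by 1.19 ± 0.36 (adjusted p = 0.0396), and the difference of SF/HA from Control was -0.91 ± 0.36 (adjusted p = 0.172).

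Prss8, prostasin, lies on chromosome 1 from 182536229 to 182540815 (minus strand), where Kat8 overlaps it on the plus strand. Whether counting used strand is not stated, so reads of the 2 genes cannot be told apart in the overlap. It measured 14.8, 14.0 and 16.5 FPKM in SF/HA-HEP-PAM, 13.4, 17.0 and 19.4 in SF/HA, 46.5, 76.2 and 72.9 in Alkali-burned, and 30.0, 35.2 and 31.6 in Control. The patch groups overlapped, and all 6 of their libraries lay below Control, which lay below all burned libraries. Prss8 fell with SF/HA-HEP-PAM against Control, by 1.05 ± 0.20 (log2, SE; limma adjusted p = 0.0054). With SF/HA it differed from Control by -0.93 ± 0.20 (adjusted p = 0.0218) and burned corneas differed from Control by 0.96 ± 0.20 (adjusted p = 0.0156); both passed on p and stayed just short of the fold needed for a call.

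Fxyd4, on chromosome 4 from 151109779 to 151113637 (minus strand), gave the largest fall of the set against Control. It measured 6.33, 5.87 and 11.9 FPKM in SF/HA-HEP-PAM, 15.1, 7.27 and 17.1 in SF/HA, 60.5, 80.7 and 73.2 in Alkali-burned, and 34.1, 58.5 and 45.9 in Control. All patch libraries were below all Control libraries, and all burned libraries were above them. It fell by 2.41 ± 0.34 with SF/HA-HEP-PAM (limma adjusted p = 0.00117) and by 1.78 ± 0.34 with SF/HA (adjusted p = 0.0122), each against Control. Without Control replicate 2 the SF/HA fall was 1.60 and missed the threshold. The burned group differed from Control by 0.64 ± 0.34 (adjusted p = 0.278), although its libraries did not overlap those of Control.

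Set against burned corneas, the comparisons in view when the list was drawn up, these 5 genes were lower with both patches. With SF/HA-HEP-PAM the log2 differences were -2.01 ± 0.20 for Prss8, -2.85 ± 0.42 for Prss22, -2.37 ± 0.36 for Prss27, -3.21 ± 0.32 for Prss30 and -3.06 ± 0.34 for Fxyd4. With SF/HA they were -1.89 ± 0.20 for Prss8, -2.32 ± 0.42 for Prss22, -2.08 ± 0.36 for Prss27, -2.65 ± 0.32 for Prss30 and -2.43 ± 0.34 for Fxyd4. The 2 comparisons share the burned libraries. Of the 8 tested genes, 6 were called with SF/HA-HEP-PAM, 5 lower and Spint1 higher, where 11.1% of all tested genes were called (7.38% higher, 3.71% lower). With SF/HA 5 were called, all lower, where 2.44% of all genes were (0.376% higher, 2.06% lower). The voom fit called 6 of 9 with SF/HA-HEP-PAM, against 22% of its genes, and 5 of 9 with SF/HA, against 2.75%. The Spint1 call ended with a pseudocount of 5 FPKM (0.79), with median-of-ratios scaling (0.91), and without SF/HA-HEP-PAM replicate 2 or 3 or Alkali-burned replicate 1 (0.91). As these comparisons were in view when the genes were chosen, the counts are a description and nothing is read from them. Epithelial markers did not share this order: their summed share of reads, given above, was lowest in the burned group. Krt15 was the exception in that list, with its lowest mean in Control. It averaged 64.4 ± 37.1 FPKM in SF/HA-HEP-PAM, 55.4 ± 28.3 in SF/HA, 22.4 ± 0.67 in Alkali-burned and 11.7 ± 6.48 in Control. The other markers of the list had their lowest mean FPKM in the burned group. The part of these markers in these differences was not tested.

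**Figure D2:**
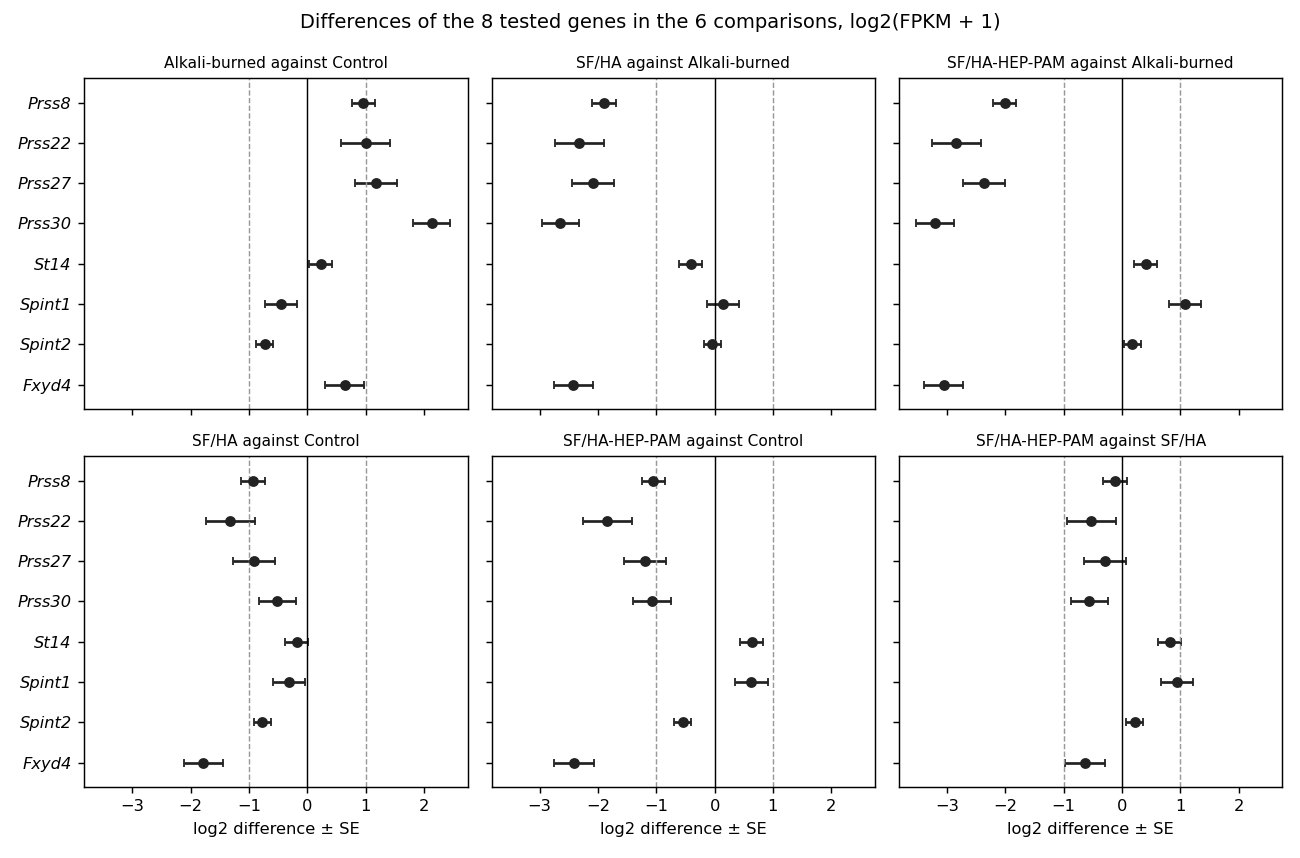
Log2 differences (horizontal axis, log2(FPKM + 1), with bars of 1 SE) of the 8 tested genes in the 6 comparisons; dashed lines mark 1 and -1. Prss8, Prss22, Prss27, Prss30 and Fxyd4 lie left of 0 in all 4 comparisons of a patch with Alkali-burned or Control, and St14 and Spint1 lie right of 0 in all 3 comparisons of SF/HA-HEP-PAM.

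Matriptase did not follow the Prss genes. St14 lies on chromosome 8 from 29540811 to 29581517 (minus strand), and measured 2.38, 2.16 and 3.51 FPKM in SF/HA-HEP-PAM, 1.21, 0.788 and 1.23 in SF/HA, 1.47, 2.06 and 1.74 in Alkali-burned, and 0.859, 1.83 and 1.43 in Control. Every SF/HA-HEP-PAM library was above every other library. Its log2 differences with SF/HA-HEP-PAM were 0.82 ± 0.20 against SF/HA (limma adjusted p = 0.0317) and 0.64 ± 0.20 against Control (adjusted p = 0.042). Both passed on p and were short of the fold on the log2(FPKM + 1) scale, which understates changes of genes this low. On recovered reads, limma voom gave St14 a log2 difference of 1.24 ± 0.28 between SF/HA-HEP-PAM and SF/HA (adjusted p = 0.00901), past both thresholds; 9.35% of 8653 genes were called in that fit.

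Spint1, the inhibitor HAI-1 that binds matriptase and prostasin, lies on chromosome 3 from 106231444 to 106244119 (plus strand). It measured 11.8, 17.1 and 16.4 FPKM in SF/HA-HEP-PAM, 8.86, 7.59 and 5.77 in SF/HA, 4.84, 7.86 and 7.13 in Alkali-burned, and 6.003, 13.2 and 9.94 in Control. SF/HA-HEP-PAM stood clear of SF/HA and Alkali-burned and overlapped Control. The log2 difference with SF/HA-HEP-PAM was 0.94 ± 0.28 against SF/HA (limma adjusted p = 0.0623), 0.63 ± 0.28 against Control (adjusted p = 0.13) and 1.09 ± 0.28 against Alkali-burned. Limma voom called the first of these, at 1.04 ± 0.27 (adjusted p = 0.0189).

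Spint2, the inhibitor HAI-2, lies on chromosome 1 from 84558166 to 84580616 (minus strand) and was highest in Control. It measured 23.9, 22.1 and 24.5 FPKM in SF/HA-HEP-PAM, 22.0, 17.7 and 20.5 in SF/HA, 18.8, 21.1 and 22.0 in Alkali-burned, and 28.7, 38.4 and 38.0 in Control. All 9 libraries of the other groups were below the lowest Control library. The log2 differences from Control were -0.55 ± 0.15 with SF/HA-HEP-PAM (limma adjusted p = 0.0245), -0.77 ± 0.15 with SF/HA (adjusted p = 0.0127) and -0.73 ± 0.15 in burned corneas (adjusted p = 0.014). All 3 passed on p and none reached the fold for a call.

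Counted over the 8 tested genes, 5 fell with SF/HA-HEP-PAM against Control (Prss8, Prss22, Prss27, Prss30 and Fxyd4), where 2.39% of all genes were called lower, 9.21% higher and 11.6% in either direction. The voom fit called 5 of 9, against 17.8% of its genes. The median log2 difference was -1.06 over the 8 and 0.138 over all tested genes. Prss22 and Fxyd4 kept the call without any 1 library. Prss27 lost it without SF/HA-HEP-PAM replicate 1 (log2 difference -0.83) or 2, or Control replicate 2 or 3, Prss30 lost it without any 1 SF/HA-HEP-PAM library or Control replicate 2 (-0.72) or 3, and Prss8 without Control replicate 2 (-0.99). Without the 4 libraries least like the rest of their groups, 4 of the 8 were called. With SF/HA against Control, 1 of 8 fell (Fxyd4), where 4.56% of all genes were called (3.19% higher, 1.37% lower); voom called 2 of 9, against 4.87% of its genes. The median was -0.838 against 0.00301 over all tested genes.

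Between the 2 patches, 0 of the 8 tested genes were called by limma, where 4.37% of all tested genes were (3.84% higher, 0.524% lower). At an unadjusted p below 0.05, for which the share of all genes is not given here, there were 2, St14 and Spint1. Voom called the same 2, in a fit that called 9.35% of its genes. For Prss8 the difference of SF/HA-HEP-PAM from SF/HA was -0.12 on the log2 scale (95% interval -0.565 to 0.329). The intervals were wider for Prss22 (-0.53, from -1.46 to 0.407), Prss27 (-0.28, from -1.09 to 0.519), Prss30 (-0.56, from -1.27 to 0.149) and Fxyd4 (-0.63, from -1.38 to 0.118), so a difference of 2-fold in these 4 lay within them.

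Ratios of reads within a library do not depend on its depth, and they set the protease against its inhibitor. Prss8 had 0.451, 0.296 and 0.363 reads per read of Spint1 in SF/HA-HEP-PAM, 0.547, 0.812 and 1.21 in SF/HA, 3.47, 3.51 and 3.70 in Alkali-burned, and 1.81, 0.966 and 1.15 in Control. SF/HA-HEP-PAM was below every other library and the burned libraries were above every other, in a narrow band. The ratio of Prss8 to St14 was 0.528 to 0.731 in SF/HA-HEP-PAM, 1.24 to 2.44 in SF/HA, 3.57 to 4.73 in Alkali-burned and 2.17 to 3.94 in Control; burned and Control libraries overlapped. Per read of Spint2, the other Kunitz inhibitor, Prss8 had 0.126 to 0.137 reads in SF/HA-HEP-PAM, 0.124 to 0.197 in SF/HA, 0.505 to 0.738 in Alkali-burned and 0.17 to 0.214 in Control, so the patches overlapped there. Prss27 per Spint1 was 2.71 to 5.41 in SF/HA-HEP-PAM, 6.04 to 15.8 in SF/HA, 40.9 to 44.2 in Alkali-burned and 10.8 to 16.5 in Control. As the genes differ in length, each ratio can be compared between libraries but not read as a ratio of molecules.

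**Figure D3:**
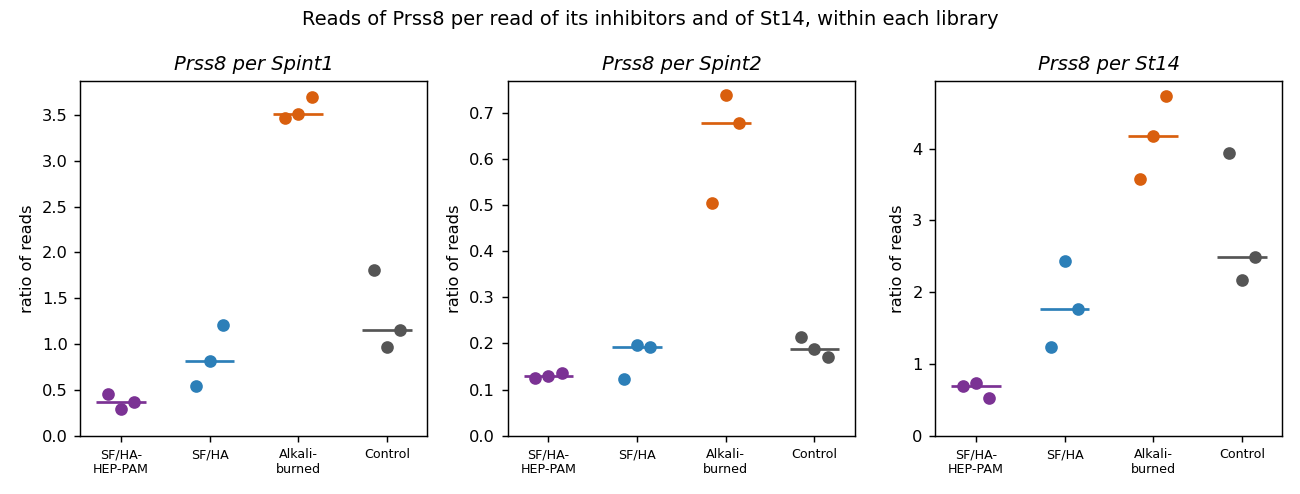
Reads of Prss8 per read of Spint1, Spint2 and St14 (vertical axes, from 0) in each library, with group medians as lines. Per read of Spint1, the 3 Alkali-burned libraries sit at 3.47 to 3.70 and the 3 SF/HA-HEP-PAM libraries at 0.296 to 0.451.

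Scnn1a, the alpha subunit of the epithelial sodium channel, was near the limit of detection. It measured 0.421, 0.57 and 0.899 FPKM in SF/HA-HEP-PAM, 0.645, 0.69 and 0.809 in SF/HA, 0.624, 0.374 and 0.177 in Alkali-burned, and 0.177, 0.292 and 0.297 in Control, from 2 to 28 reads per library. Both patch groups lay above all Control libraries. In voom the log2 difference from Control was 1.04 ± 0.49 with SF/HA-HEP-PAM (adjusted p = 0.139) and 1.36 ± 0.53 with SF/HA (adjusted p = 0.155), so neither was called. The other subunits had fewer reads still: Scnn1b 0 to 4 per library, and Scnn1g 1 read in all 12 libraries together.

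Prss30, Prss22 and Prss27 lie within 70 kb of each other on chromosome 10. Of 20 other tested genes within 500 kb, 1 was called in burned corneas against Control, where 5.69% of all tested genes were. With SF/HA-HEP-PAM against Control, 1 was called lower and 1 higher, where 11.6% of all were called. These counts are near the shares over all genes. Called higher in the first comparison and lower in the second was Prss32, a further serine protease gene at -124.8 kb relative to Prss30. It averaged 1.40 ± 0.40 FPKM in SF/HA-HEP-PAM, 2.91 ± 1.35 in SF/HA, 17.1 ± 4.69 in Alkali-burned and 5.40 ± 1.52 in Control (SD, n = 3 each). It rose by 1.49 ± 0.29 in burned corneas (limma adjusted p = 0.0112) and fell by 1.40 ± 0.29 with SF/HA-HEP-PAM (adjusted p = 0.0076), each against Control. The other call with SF/HA-HEP-PAM against Control was Srrm2, a splicing-related gene, which was higher by 1.30 ± 0.28 (adjusted p = 0.00995). The 20 neighbours had medians of 0.0531 with SF/HA-HEP-PAM and 0.0251 in burned corneas against Control, close to 0. Kctd5, whose gene ends 1891 bases from Prss27 and which was looked at after its values were seen, was called in none of the 6 comparisons, but shared the order of levels. It averaged 1.42 ± 0.33 FPKM in SF/HA-HEP-PAM, 1.32 ± 0.21 in SF/HA, 3.36 ± 0.47 in Alkali-burned and 1.95 ± 0.51 in Control, and the burned libraries lay above all others. Kctd5 differed from Alkali-burned by -0.85 ± 0.17 with SF/HA-HEP-PAM and by -0.91 ± 0.17 with SF/HA (log2, SE), short of the fold. As it was picked by its values, these are a description and carry no test.

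**Figure D4:**
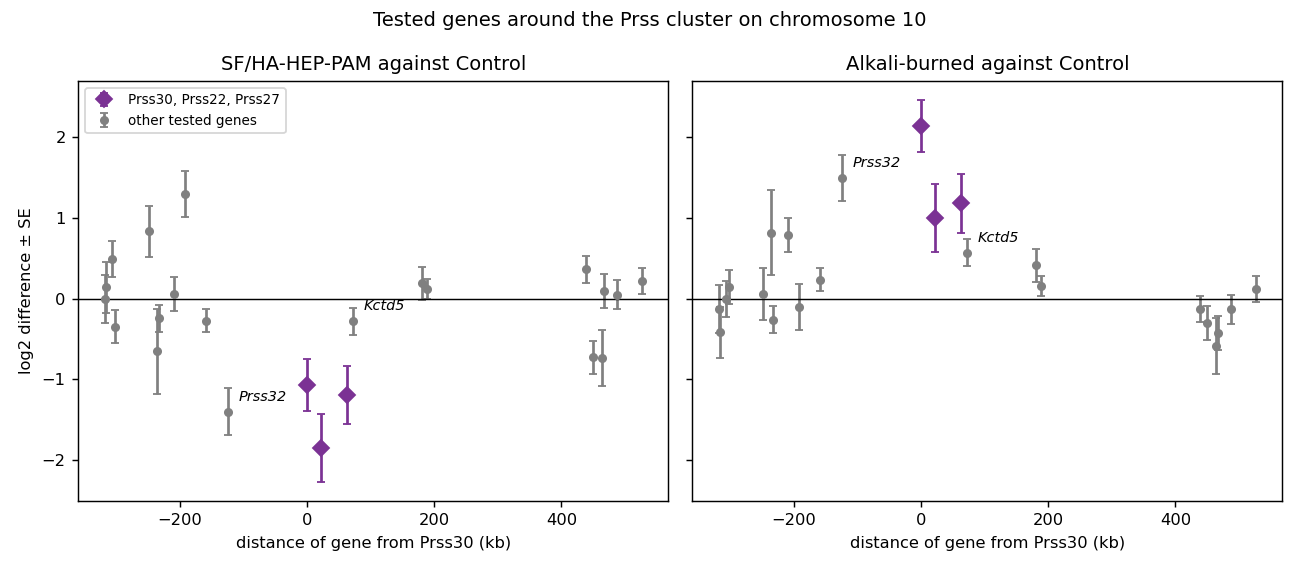
Log2 differences with bars of 1 SE (vertical axis) of the tested genes within 500 kb of Prss30, Prss22 and Prss27, by distance from Prss30 in kb (horizontal axis). The 3 genes (diamonds) and Prss32, at -124.8 kb, lie below 0 with SF/HA-HEP-PAM and above 0 in Alkali-burned, each against Control.

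Likeness to Prss30 across the 12 libraries was measured as the root mean square distance between z-scored log2(FPKM + 1) values, a description with no test. Among named genes the nearest 5 were AABR07063281.1 (distance 0.172), Prss32 (0.201), Csnk1e, a casein kinase (0.224), Gsg1 (0.233) and Glrx, a glutaredoxin (0.235). Of the set, Prss8 ranked 16, Prss27 27, Prss22 57 and Fxyd4 89 of the tested genes, whereas St14 ranked 2538, Spint2 2998 and Spint1 4355. For Fxyd4 the nearest were Apobec1, an RNA-editing enzyme (0.187), Muc20, a membrane mucin (0.193), Slc39a4, a zinc importer (0.194), Prss22 (0.197) and Tgm2, a transglutaminase (0.237). Slc39a4 averaged 17.0 ± 3.74 FPKM in SF/HA-HEP-PAM, 30.6 ± 5.36 in SF/HA, 154 ± 27.5 in Alkali-burned and 82.9 ± 12.9 in Control (SD, n = 3 each).

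Among the other proteases listed, the membrane and channel-activating ones gave no limma calls in the reported fit. In a list of 18 membrane and channel-activating proteases, 5 were tested there and 0 were called in any of the 6 comparisons. At an unadjusted p below 0.05, for which the share of all genes is not given here, there were 3 with SF/HA-HEP-PAM against Control. Voom on 10 tested genes called 2 there, against 17.8% of its genes. Prss23 is named for the highest mean FPKM of the 5, which does not rank them by transcript abundance. It averaged 12.2 ± 2.12 FPKM in SF/HA-HEP-PAM, 6.55 ± 0.47 in SF/HA, 8.12 ± 0.38 in Alkali-burned and 5.65 ± 0.85 in Control. Its log2 difference from Control with SF/HA-HEP-PAM was 0.98 ± 0.15 (limma adjusted p = 0.00184), just short of the fold. Klk8, a kallikrein-related peptidase of stratified epithelia and the only 1 of 11 measured kallikreins that was tested, rose by 2.13 ± 0.54 with SF/HA-HEP-PAM against Control (adjusted p = 0.018). That call was lost without SF/HA-HEP-PAM replicate 3 (log2 difference 1.75) or Control replicate 2 (2.04).

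Among 8 tested inhibitors other than the Kunitz pair, 4 rose and 1 fell with SF/HA-HEP-PAM against Control. Over all tested genes, 9.21% were called higher there and 2.39% lower. Slpi, a secreted inhibitor of neutrophil proteases, rose by 2.00 ± 0.39 (limma adjusted p = 0.00574), with 1511 ± 431.2 FPKM in SF/HA-HEP-PAM and 379.8 ± 126 in Control. Serpinb2, which inhibits urokinase, rose by 3.02 ± 0.59 (adjusted p = 0.00605), Serping1, the inhibitor of complement C1, by 2.17 ± 0.24 (adjusted p = 0.000373), and Serpinb1a, which inhibits elastase, by 1.27 ± 0.32 (adjusted p = 0.0176). Slpi and Serping1 also rose in burned corneas, by 2.23 ± 0.39 (limma adjusted p = 0.00803) and 2.70 ± 0.24 (adjusted p = 0.000197). They were the 2 calls of that list there, where 4.42% of all tested genes were called higher. Summed macrophage and neutrophil markers (8 genes) took 0.258 to 2.03% of reads in SF/HA-HEP-PAM, 0.218 to 1.82% in SF/HA, 0.195 to 0.721% in Alkali-burned and 0.0526 to 0.0569% in Control. S100a9 gave most of the sum. Outside Control, 1 library set the top of each range, and the rest held at most 0.37, 0.342 and 0.211%. Cd68 had another order, with 55.6 ± 8.80 FPKM in SF/HA-HEP-PAM, 69.1 ± 11.7 in SF/HA, 175.9 ± 23.3 in Alkali-burned and 65.6 ± 15.9 in Control. The other markers of the list were lowest in Control. The part of these markers in the rises of the inhibitors was not tested.

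Of 6 tested substrates and partners of the cascade, F2rl1, which encodes PAR2, was the only 1 called between the patches. Over all tested genes, 4.37% were called there. F2rl1 ranged from 19.5 to 23.3 FPKM in SF/HA-HEP-PAM, 8.06 to 11.8 in SF/HA, 2.28 to 3.88 in Alkali-burned and 8.59 to 12.4 in Control. SF/HA-HEP-PAM was above all other libraries and Alkali-burned below all others. F2rl1 rose with SF/HA-HEP-PAM against SF/HA, by 1.08 ± 0.20 (limma adjusted p = 0.00971), and fell in burned corneas against Control, by 1.51 ± 0.20 (adjusted p = 0.00163). The first of these was short of the fold without SF/HA replicate 3 (0.98), with quantile normalization (0.96), with median-of-ratios scaling (0.88) and with a pseudocount of 5 FPKM (0.85). Plau, the plasminogen activator urokinase, rose against Control by 2.58 ± 0.29 with SF/HA-HEP-PAM (adjusted p = 0.000375) and by 1.95 ± 0.29 with SF/HA (adjusted p = 0.00372).

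Several transcription factors of barrier epithelium were higher with SF/HA-HEP-PAM. Of 9 tested, 4 rose with SF/HA-HEP-PAM against SF/HA (among them Grhl3, Klf4 and Pax6), where 3.84% of all tested genes were called higher. Against Control 4 rose (among them Grhl3, Klf5 and Ovol1), where 9.21% of all were called higher. Against Alkali-burned 6 rose, where 7.38% of all were called higher. None fell in these 3 comparisons. Grhl3, a grainyhead factor needed for the skin barrier, ranged from 9.60 to 13.0 FPKM in SF/HA-HEP-PAM, 2.38 to 4.26 in SF/HA, 0.826 to 1.13 in Alkali-burned and 1.74 to 2.98 in Control. It rose with SF/HA-HEP-PAM by 1.57 ± 0.20 against SF/HA (limma adjusted p = 0.00255) and by 1.89 ± 0.20 against Control (adjusted p = 0.000346). Klf4, at 268 ± 18.0 FPKM in SF/HA-HEP-PAM, 126 ± 20.3 in SF/HA, 85.1 ± 6.69 in Alkali-burned and 136 ± 26.9 in Control, rose by 1.09 ± 0.17 against SF/HA (adjusted p = 0.00472). Its difference was 0.96 without SF/HA replicate 3 and 0.88 with median-of-ratios scaling. Klf5 and Ovol1 against Control were lost without any 1 SF/HA-HEP-PAM library or Control replicate 1, with adjusted p of 0.0508 to 0.0928. The summed share of epithelial markers was also higher in SF/HA-HEP-PAM (3.71 to 4%) than in SF/HA (2.68 to 3.57%) and Alkali-burned (1.97 to 2.92%), and overlapped Control (3.35 to 5.8%). That of stromal markers was lower in SF/HA-HEP-PAM (1.23 to 2.15%) than in SF/HA (3.5 to 3.76%), Alkali-burned (2.73 to 3.56%) and Control (3.3 to 8.54%). The part of either in these rises was not tested.

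**Figure D5:**
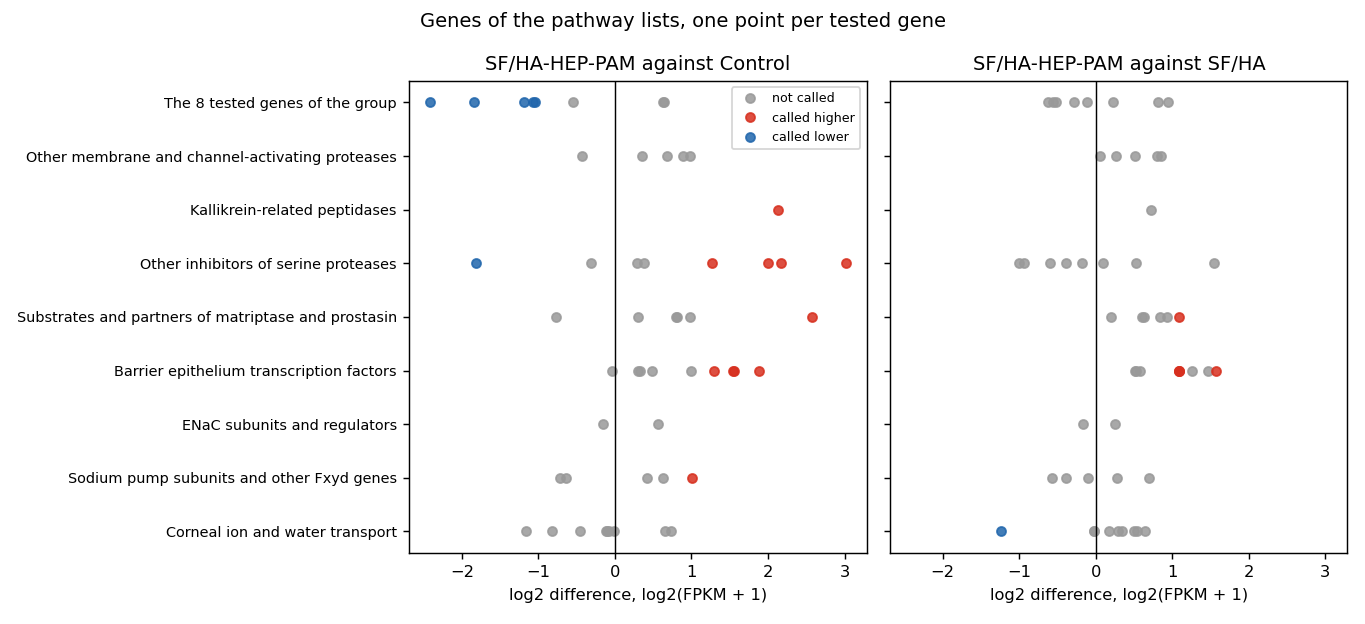
Log2 differences (horizontal axis, log2(FPKM + 1)) of the 8 tested genes and of the genes of 8 lists, 1 point per tested gene, coloured by call. With SF/HA-HEP-PAM against Control, 5 of the 8 genes were called lower, and 4 of 9 barrier transcription factors were called higher. Over all tested genes, 2.39% were called lower there and 9.21% higher.

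Sodium transport outside the set gave few calls. ENaC (the epithelial sodium channel) subunits and regulators had 2 tested genes of 10 in the table, Nedd4 and Sgk1, and 0 limma calls in any comparison. With SF/HA-HEP-PAM against Control, 1 passed an unadjusted p below 0.05, for which the share of all genes is not given here. Voom, with 6 tested, called 3 there, against 17.8% of its genes. Of 5 tested sodium pump subunits and other Fxyd genes, 1 was called higher with SF/HA-HEP-PAM against Control, where 9.21% of all tested genes were. Voom called 2 of 6 there, against 17.8% of its genes. Against Alkali-burned 1 was called higher, where 7.38% of all were, and voom called 3 of 6, against 22% of its genes. The limma call against Alkali-burned was Atp1b3, a beta subunit of the pump, at 1.05 ± 0.15 (limma adjusted p = 0.0014). It was short of the fold without SF/HA-HEP-PAM replicate 3 (0.95) or Alkali-burned replicate 1 (0.96), with quantile normalization (0.89) and with median-of-ratios scaling (0.88). Of 9 tested ion and water transport genes, Aqp1, a water channel of stroma and endothelium, fell with SF/HA-HEP-PAM against SF/HA by 1.24 ± 0.32 (adjusted p = 0.0382), a call lost without any 1 of the 6 libraries compared. Stromal markers (7 genes) took 1.23 to 2.15% of reads in SF/HA-HEP-PAM and 3.5 to 3.76% in SF/HA, and their part in this fall was not tested.

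Of 8 listed markers of conjunctiva, the neighbouring tissue, 5 were in the table, and Krt7, Krt19 and Muc5ac were not. The 5 in the table took 0.07 to 0.133% of reads in SF/HA-HEP-PAM, 0.0734 to 0.148% in SF/HA, 0.0982 to 0.202% in Alkali-burned and 0.115 to 0.204% in Control. Muc5b had 0 reads in every library, and Agr2 and Spdef, goblet cell genes, had at most 3 reads. Krt13, a keratin of conjunctival epithelium that gave most of the sum, averaged 235.9 ± 78.53 FPKM in SF/HA-HEP-PAM, 222.6 ± 95.47 in SF/HA, 381.4 ± 133.9 in Alkali-burned and 318 ± 111.5 in Control. Krt4, the other keratin measured from the list, had another order. It averaged 11.6 ± 1.40 FPKM in SF/HA-HEP-PAM, 10.85 ± 4.11 in SF/HA, 5.70 ± 0.97 in Alkali-burned and 21.2 ± 10.6 in Control. Krt4 fell in burned corneas against Control by 1.61 ± 0.36 (limma adjusted p = 0.0203). The part of these markers in the order of the Prss genes was not tested.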

How the data were processed

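Rat cornea libraries (12; 3 in each of 4 groups, grouped by their titles) were measured by RNA sequencing. Per the labels' protocols, reverse transcription used barcoded poly(dT) primers with molecular identifiers, and cDNA was pooled. The authors deposited FPKM values. The series text names fastp and HTSeq-count. The submitters' processing notes list STAR and featureCounts besides bcl2fastq and fastp, with build mRatBN7.2, so which tool counted the reads is uncertain. Collapse of molecular identifiers and use of strand are not given in the sources used here.

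Besides 30452 genes, 108 lines that named none were dropped. The table's length column is the genomic span with introns, so levels are not compared between genes. Dividing FPKM times length by the value of 1 read in each library gave whole read counts (largest deviation from a whole number 3.51e-06). Tests used limma 3.58.1 in R 4.3.3 on log2(FPKM + 1), with a variance trend and all 12 libraries in 1 model of 4 groups, over 6112 genes with at least 1 FPKM in 3 libraries. Calls needed a Benjamini-Hochberg adjusted p below 0.05 and a log2 difference above 1 or below -1. Limma voom on the read counts (8653 genes with at least 10 reads in 3 libraries) was an alternative, as were other pseudocounts, filters, scalings, library weights, a replicate block and leaving out each library. The fit was tested on simulated data. Leaving out 1 library per group, that least correlated with the others, was added after the data were seen.

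The genes and lists were chosen with earlier results of these data known. Named genes are all 10 of the set and up to 3 called genes of each list and comparison with the largest differences. The gene of a list with the highest mean FPKM is also named, as a rule for naming only. So are the 5 genes most like Prss30 and like Fxyd4, and Grhl3, Slc39a4 and F2rl1. Others were named after their values were seen, where a count of 5 or fewer rested on them or a marker or neighbour is described. Of 112 genes in 8 lists, 105 were in the table. Some genes counted in the lists are not reported by name here. Figures used Python 3.11.15 and matplotlib 3.10.9.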

Additional observations from a re-analysis of the deposited data

How the results depend on the processing

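Of the 8 tested genes, the number called depended on the setting. In burned corneas against Control it was 1 in the reported fit, 2 with a 5 FPKM filter, with only the compared libraries, with the replicate number as a block (replicate block) and with voom, 4 with library weights and 3 without the 4 libraries that stood apart. With SF/HA-HEP-PAM against Control it was 5, and 3 with a pseudocount of 5 FPKM, with no filter and with only the compared libraries. With SF/HA against Control it was 1, but 0 with only the compared libraries, 2 with voom and 2 without the 4 libraries. Between the patches it was 0, then 1 with a pseudocount of 0.1 FPKM, 1 with library weights, 2 with voom and 1 without the 4 libraries. Leaving out 1 library at a time gave 1 to 2 calls in burned corneas against Control, 3 to 5 with SF/HA and 5 to 6 with SF/HA-HEP-PAM against Alkali-burned, 0 to 0 between the patches, and 0 to 2 with SF/HA and 2 to 5 with SF/HA-HEP-PAM against Control. No direction of a called value reversed in 810 recomputed values of the set. The cause of these shifts was not tested.

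Same-numbered libraries deviated together in 2 of 18 pairs (correlations over 0.1, range -0.0935 to 0.155). Pairs with unlike numbers are not given for comparison, so whether the numbers pair samples cannot be told. The replicate block moved the other 5 counts by 0. Over all tested genes, calls with SF/HA-HEP-PAM against Control were 709, and 345 with a pseudocount of 5 FPKM and 1537 with voom; between the patches they were 267, 143 and 809. Quantile normalization moved the median of all genes in the first of these from 0.138 to -0.115, and the split of calls from 563 higher and 146 lower to 385 and 283. Read depth limits Scnn1a, with 2 to 28 reads per library, and Prss30 in the patch groups.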
